A study of Homo sapiens with 9 samples.

Results

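Oncofetal genes are active in the fetal liver or other embryonic tissue, are turned down in the adult hepatocyte and come back in many hepatocellular carcinomas. Several of them are linked through RNA: LIN28B binds the precursors of the let-7 microRNAs and blocks their maturation, mature let-7 represses HMGA2, the IGF2BP genes and LIN28B itself, and the IGF2BP proteins bind and protect mRNAs that include that of IGF2. IGF2, H19 and DLK1 are imprinted, which means that 1 parental copy is used. The genes studied here were looked up by symbol in the gene annotation and read from the count table by their Ensembl identifiers. All 10 members (GPC3, IGF2, H19, DLK1, LIN28B, IGF2BP1, IGF2BP2, IGF2BP3, HMGA2 and SALL4) were among the 60664 genes of the table, and the rule that selects them uses no measured value.

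The RNA came from Huh-7, a human hepatocellular carcinoma cell line, in 3 lines with 3 libraries each. WT cells carried no deletion, 1-1 KO cells lacked vault RNA 1-1 and 1-2 KO cells lacked vault RNA 1-2, which are short non-coding RNAs of the vault particle. No treatment was applied to any group. Another group supplied the WT and 1-1 KO cells. The 1-2 KO cells grew from 1 cell of the WT stock that had been edited with Cas9 and paired guides, so that each knockout was 1 line and a difference between lines cannot be told apart from a difference between clones. The study calls the 3 libraries of a line biological replicates and states that the RNA was extracted in triplicate, without saying whether separate cultures were used. The p-values measure the spread between these libraries, which may be technical in part.

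Depth was between 32384469 counts (WT replicate 3) and 41782387 counts (1-1 KO replicate 1) per library. The polyadenylated libraries hold almost no vault RNA: no library had a count for VTRNA1-2, and VTRNA1-1 was counted with 1 read in WT replicate 1 and not elsewhere, so they do not show the deletions. All 10 hepatocyte markers checked, among them ALB, APOA1 and HNF4A, were above 3 counts in each line, and their summed level ran from 15800 to 16700 CPM in WT, from 32100 to 33000 CPM in 1-1 KO and from 22100 to 24400 CPM in 1-2 KO. The summed leukocyte markers (5 genes, CD68 at 3 counts or fewer in each line) lay at 115 CPM in WT, from 102 to 108 CPM in 1-1 KO and from 21.6 to 22.4 CPM in 1-2 KO. Nearly all of this was LYZ, with means of 113.5, 101.8 and 19.2 CPM, and the next, CD14, had at most 2.93 CPM. The means of PTPRC and CD14 were lowest in WT. The endothelial markers (5 genes, KDR and TEK at 3 counts or fewer in each line) summed to at most 8.04 CPM, and the fibroblast markers (6 genes) to between 119 and 295 CPM. The largest fibroblast marker was LUM, with means of 157 CPM in WT, 206 CPM in 1-1 KO and 62.1 CPM in 1-2 KO, and DCN had at most 5 counts in any library. The part of these shifts in the results on the oncofetal genes was not tested. The 1-2 KO replicate 1 library stood apart from the other libraries of its line, as the chi-square over its degrees of freedom was 15.2 and 16.1 against them where the other 1-2 KO pair gave 2.67, and leaving it out changed no call of a member.

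The let-7 microRNAs were not measured here, but 6 of the members hold short matches to them, so the sequences are given first. The 8 let-7 -5p microRNAs of the RefSeq table for GRCh38.p14 share the seed of bases 2 to 8, GAGGUAG, shown here in capitals in 3 of them:
hsa-let-7a-5p: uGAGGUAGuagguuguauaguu
hsa-let-7e-5p: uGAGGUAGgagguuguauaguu
hsa-let-7i-5p: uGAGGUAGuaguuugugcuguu

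A seed match is the stretch CTACCTC on the sense strand of an mRNA, and a match followed by A is the longer and usually stronger form. In the 3′ untranslated region of the canonical GENCODE 44 transcript, LIN28B, IGF2BP1 and HMGA2 each held 4 seed matches, IGF2BP2, IGF2BP3 and SALL4 each held 1, and GPC3, IGF2 and DLK1 held 0. The longer form is shown here in capitals in its sequence, on the strand of the mRNA and in the hg38 build that the counts also use:
LIN28B at chr6:105078806-105078834: tcctttacccggttgcaaagtCTACCTCA
LIN28B at chr6:105081415-105081443: tactctgtttacagcaaaaggCTACCTCA
HMGA2 at chr12:65963293-65963320: ggggcgccaacgttcgatttCTACCTCA
IGF2BP1 at chr17:49051055-49051083: caatgctgtgtgcgaagtaaaCTACCTCA
IGF2BP1 at chr17:49053692-49053720: gggaaccagcagtgctagtaaCTACCTCA
IGF2BP1 at chr17:49054346-49054374: ctacgagtataaatggattaaCTACCTCA
IGF2BP2 at chr3:185644220-185644248 (minus strand): gagaaaaacacacagaagaagCTACCTCA
IGF2BP3 at chr7:23311795-23311823 (minus strand): taaacgtgcatttttactcaaCTACCTCA
SALL4 at chr20:51782923-51782951 (minus strand): ggtgtgaaagctttaatttatCTACCTCA

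The comparison was with other genes whose 3′ untranslated region was of like length, within 20%, so the member itself was not counted. At least 4 matches were found in 0.15% of them for LIN28B (1308 genes), 0.48% for IGF2BP1 (621 genes) and 0.06% for HMGA2 (1775 genes). At least 1 match was found in 12.8% of the genes of like length for IGF2BP2 and for IGF2BP3, and in 12.2% for SALL4. The 7 bases were searched on the sense strand only, and a match describes the sequence without showing that let-7 binds there. The results for these 6 genes are set beside their number of matches after the values of each gene.

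In all, 7 members were abundant in all lines, SALL4 was low, and DLK1 and H19 were near 0. The levels are counts scaled to a common library size (CPM) with library sizes scaled by edgeR's TMM method, and levels of different genes are compared only as CPM per kb of exon. The exon length merges all annotated exons of a gene and can exceed that of the mRNA in use. It is 15070 bases for HMGA2, 5943 for LIN28B and 7146 for IGF2, so that the order between genes depends on it in part. In WT cells, GPC3 led with 208 ± 9.27 CPM per kb (SD, n = 3), followed by LIN28B with 85.5 ± 2.31, IGF2BP1 with 59.9 ± 0.636 and HMGA2 with 27.6 ± 0.768 CPM per kb. IGF2 with 16.5 ± 1.59 and IGF2BP2 with 15.7 ± 0.141 CPM per kb came next and overlapped, and IGF2BP3 followed with 12.1 ± 0.29. SALL4 had 0.447 ± 0.121 CPM per kb. The order by this measure changed in 1-2 KO: IGF2BP1 with 68.8 ± 1.6 CPM per kb came before LIN28B with 66.3 ± 3.27, although their libraries overlapped. IGF2 with 24.5 ± 1.04 came before HMGA2 with 21.1 ± 0.558, an order that rests in part on their exon lengths.

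**Figure D1:**
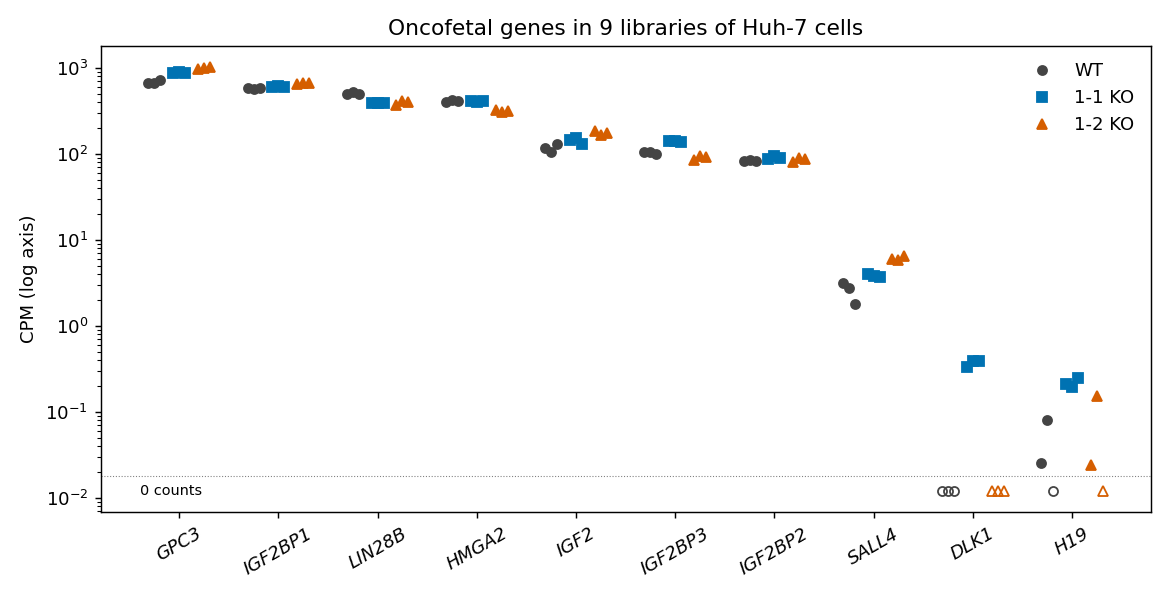
Level of each oncofetal gene in each library, in CPM on a log axis. Each point is 1 library (circles WT, squares 1-1 KO, triangles 1-2 KO), and open symbols under the dotted line mark 0 counts. GPC3 and SALL4 step up from WT to 1-1 KO and 1-2 KO without overlap, LIN28B is lower in both knockouts, and DLK1 is detected in the 1-1 KO libraries alone.

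The tests asked how each knockout differed from WT and how the knockouts differed from each other, with edgeR's quasi-likelihood test on the counts of all 9 libraries and Benjamini-Hochberg adjustment over 17207 genes. In all, 9 members were tested. H19 did not pass the filter on low counts, and DLK1 passed it only through the 1-1 KO libraries, so that its difference was bound up with its being tested. It is left out of the counts that follow and described on its own. In 1-1 KO compared to WT, 5 of the other 8 members rose (GPC3, IGF2, IGF2BP2, IGF2BP3 and SALL4), 1 fell (LIN28B) and 2 did not pass the threshold of 0.05 (IGF2BP1 and HMGA2). In the same comparison 63.4% of all tested genes passed (32.5% higher and 30.9% lower), and 76.6% of the 4514 tested genes whose mean reached 50 CPM, the range in which 7 members lie. In 1-2 KO compared to WT, 4 members rose (GPC3, IGF2, IGF2BP1 and SALL4), 3 fell (LIN28B, IGF2BP3 and HMGA2) and 1 did not pass (IGF2BP2), where 54.4% of all tested genes (28.2% higher and 26.2% lower) and 66.9% of the abundant genes passed. Between the knockouts, 4 members were higher in 1-2 KO (GPC3, IGF2, IGF2BP1 and SALL4) and 2 were lower (IGF2BP3 and HMGA2), where 65.3% of all tested genes (33.1% higher and 32.2% lower) and 77.4% of the abundant genes passed. Of the 7 abundant members, 5 passed in 1-1 KO, 6 in 1-2 KO and 5 between the knockouts, so that their share was near that of abundant genes at large. The median size of the log2 fold change of abundant genes, without its sign, was 0.24 in 1-1 KO, 0.18 in 1-2 KO and 0.25 between the knockouts. The comparisons with WT share the WT libraries, so that a like direction in both is not an independent repeat.

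GPC3, a glypican that is anchored to the cell surface, carries heparan sulfate and is used as a tissue marker of hepatocellular carcinoma, rose in both knockouts. It was at 660, 668 and 716 CPM in WT replicates 1 to 3. The 1-1 KO libraries had 880, 902 and 873 CPM, and the 1-2 KO libraries had 976, 990 and 1021 CPM. The 3 lines did not overlap, and the 1-2 KO libraries were the highest. The log2 fold change was 0.38 (SE 0.0382, edgeR adjusted p = 9.11e-07) in 1-1 KO and 0.55 (SE 0.0383, edgeR adjusted p = 2.66e-08) in 1-2 KO, a rise of 1.30-fold and 1.46-fold. These are bulk libraries, in which a change in the share of expressing cells and a change of level per cell cannot be told apart. The direct comparison gave 0.17 more in 1-2 KO (95% interval 0.09 to 0.25, edgeR adjusted p = 0.0013). The gene lies on the minus strand of chromosome X from 133535745 to 133987100, and its 50 nearest tested genes went both ways, with 14 higher and 17 lower in 1-1 KO and 10 higher and 16 lower in 1-2 KO, and medians of -0.08 and -0.04 on the log2 scale.

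IGF2, the fetal insulin-like growth factor, rose in both knockouts and most in 1-2 KO. WT replicates 1 to 3 had 117, 106 and 129 CPM, the 1-1 KO libraries had 144, 154 and 129 CPM, and the 1-2 KO libraries had 183, 168 and 174 CPM. The highest WT library and the lowest 1-1 KO library touched, whereas each 1-2 KO library was above all others. The log2 fold change was 0.28 in 1-1 KO (SE 0.0694, edgeR adjusted p = 0.00313) and 0.57 in 1-2 KO (SE 0.0693, edgeR adjusted p = 7.45e-06). Between the knockouts it was 0.30 in favour of 1-2 KO (edgeR adjusted p = 0.00162). The neighbouring genes of 11p15.5 had a median log2 fold change of -0.18 in 1-1 KO and 0.14 in 1-2 KO, and between the knockouts the neighbours' median was 0.28, close to that of IGF2. Once the neighbours' median against WT was taken off in each knockout, IGF2 was 0.46 higher in 1-1 KO and 0.43 higher in 1-2 KO than in WT. The difference between these corrected values was -0.03 (edgeR adjusted p = 0.754), and it was 0.02 when the neighbours' median between the knockouts was taken off instead.

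The IGF2 gene (chromosome 11, 2129112 to 2158391, minus strand) shares exon sequence with other annotated genes. A gene annotated without a symbol covers 37.9% of its exon bases and INS-IGF2 covers 20.4%, both on the same strand and both with 0 counts in all libraries. IGF2-AS, a long non-coding RNA on the opposite strand, shares 333 exon bases with it and had at least 21 counts per library and a mean of 0.692 CPM in WT. IGF2-AS rose by a log2 fold change of 1.53 in 1-1 KO (edgeR adjusted p = 6.88e-05) and of 0.93 in 1-2 KO (edgeR adjusted p = 0.00707). Whether the counting used the strand is not given in the sources used here, and the counts of IGF2 itself were between 3987 and 7694 per library.

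H19, a long non-coding RNA that is expressed from the maternal copy next to IGF2, was barely detected, so that these cells carried IGF2 mRNA with almost no H19. It had 1, 3 and 0 counts in WT replicates 1 to 3, 9, 8 and 10 counts in 1-1 KO, and 1, 6 and 0 counts in 1-2 KO. Each 1-1 KO library was above all WT and 1-2 KO libraries. With WT set to 3 counts per library, H19 was at least 2.60-fold higher in 1-1 KO. Without the filter on low counts, edgeR's adjusted p was 0.00269 for 1-1 KO compared to WT, 0.719 for 1-2 KO compared to WT and 0.0118 between the knockouts. IGF2 was at 16.5 CPM per kb of exon in WT, 19.9 in 1-1 KO and 24.5 in 1-2 KO, where H19 had 0.0101, 0.0628 and 0.0168 CPM per kb.

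DLK1, a transmembrane protein of the Notch ligand family that marks hepatoblasts, was seen in 1-1 KO alone. It had 14, 16 and 16 counts in the 1-1 KO libraries and 0 counts in each of the 3 WT and 3 1-2 KO libraries. This corresponds to 0.371 ± 0.0346 CPM (SD, n = 3), at least 4.44-fold above a WT level of 3 counts per library and at least 5.02-fold above a 1-2 KO level of 3 counts per library. Even there the level was far below that of the other tested members, at 0.0707 CPM per kb. Its neighbours on 14q32 were called higher more often than lower in each knockout, with 32 of 50 higher and 2 lower in 1-1 KO and 28 higher and 3 lower in 1-2 KO.

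LIN28B, the RNA-binding protein that holds back let-7 maturation, fell in both knockouts. WT replicates 1 to 3 had 500.5, 524 and 499.9 CPM. The 1-1 KO libraries had 390, 395 and 396 CPM, and the 1-2 KO libraries had 372, 408 and 402 CPM. All knockout libraries were below all WT libraries, and the knockouts overlapped each other. The log2 fold change was -0.37 in 1-1 KO (SE 0.0393, edgeR adjusted p = 1.53e-06) and -0.37 in 1-2 KO (SE 0.0393, edgeR adjusted p = 2.26e-06). Between the knockouts the difference was 0.00 with a 95% interval from -0.08 to 0.09 (edgeR adjusted p = 0.954). The neighbours on chromosome 6 (LIN28B lies from 104936616 to 105083332) were also lower, with a median of -0.13 in 1-1 KO and -0.24 in 1-2 KO. LIN28B stayed lower by 0.24 in 1-1 KO and by 0.12 in 1-2 KO after they were taken off, and then differed between the knockouts by 0.12 (edgeR adjusted p = 0.0174).

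The IGF2BP family of mRNA-binding proteins did not move as a block. IGF2BP1 had 582, 570.3 and 580 CPM in WT replicates 1 to 3, 595, 619 and 603 CPM in 1-1 KO and 645, 667 and 675 CPM in 1-2 KO, so that the lines did not overlap. Its log2 fold change was 0.07 in 1-1 KO (95% interval -0.00 to 0.14, edgeR adjusted p = 0.0832) and 0.20 in 1-2 KO (edgeR adjusted p = 0.000158). The 50 neighbours of IGF2BP1 on chromosome 17 had a median of 0.19 in 1-2 KO, about that of the gene itself.

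IGF2BP2 changed little in either knockout. It had 83.4, 84.6 and 83.2 CPM in WT replicates 1 to 3, 88.0, 95.1 and 89.4 CPM in 1-1 KO and 81.1, 89.3 and 87.9 CPM in 1-2 KO, where it overlapped the other lines. Its log2 fold change in 1-1 KO, 0.12 (edgeR adjusted p = 0.0266), did not pass the threshold with DESeq2 (adjusted p = 0.0861) or when 1-1 KO replicate 2 was left out (edgeR adjusted p = 0.132). In 1-2 KO it was 0.04 with a 95% interval from -0.05 to 0.13 (edgeR adjusted p = 0.451).

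IGF2BP3 moved in opposite directions. It had 104.3, 104.5 and 100.1 CPM in WT replicates 1 to 3, rose to 143, 142 and 139 CPM in 1-1 KO and fell to 83.9, 93.6 and 92.0 CPM in 1-2 KO, with no overlap between the lines. The log2 fold change was 0.46 in 1-1 KO (SE 0.0414, edgeR adjusted p = 2.86e-07) and -0.20 in 1-2 KO (SE 0.0419, edgeR adjusted p = 0.00111). The direct comparison gave -0.66 (SE 0.0415, edgeR adjusted p = 5.5e-09). Its region on chromosome 7 (the gene lies from 23310209 to 23470491, minus strand) moved too: 36 of the 50 neighbours were higher and 2 were lower in 1-1 KO, with a median of 0.52. With the neighbours taken off, IGF2BP3 was at -0.06 in 1-1 KO (edgeR adjusted p = 0.205) and at -0.11 in 1-2 KO compared to WT, and the difference between the knockouts was -0.05 (edgeR adjusted p = 0.321). MALSU1, a gene on the opposite strand with between 914 and 1763 counts per library, overlaps 17.8% of the exon bases of IGF2BP3.

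As a share of the family's summed CPM per kb, IGF2BP1 made up 68.3 ± 0.49% in WT, 65.2 ± 0.23% in 1-1 KO and 72.1 ± 0.69% in 1-2 KO (SD, n = 3). IGF2BP3 made up 13.8 ± 0.32% in WT, 17.2 ± 0.38% in 1-1 KO and 11.0 ± 0.32% in 1-2 KO. The 3 lines did not overlap in either share, and the embryonic form IGF2BP1 was the main form in each line.

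**Figure D2:**
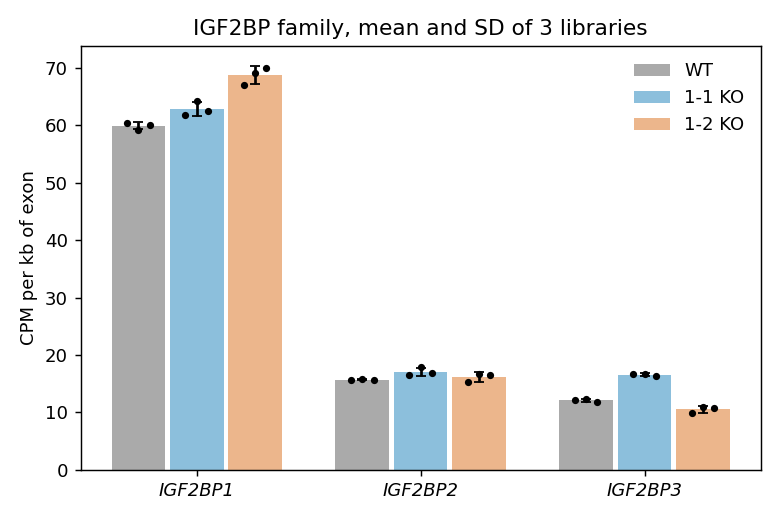
Level of the IGF2BP genes in CPM per kb of exon. Bars are the mean and error bars the SD of 3 libraries per line, and points are the libraries. IGF2BP1 lies between 59.2 and 70.1 CPM per kb, far above the others, and IGF2BP3 is highest in 1-1 KO and lowest in 1-2 KO.

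HMGA2, a chromatin protein that bends DNA and a well-known let-7 target, fell in 1-2 KO and did not pass the test in 1-1 KO. WT replicates 1 to 3 had 404, 427 and 415 CPM, 1-1 KO had 409, 403 and 413 CPM, and 1-2 KO had 327, 311 and 314 CPM. WT and 1-1 KO overlapped, and each 1-2 KO library was below both. The log2 fold change was -0.02 in 1-1 KO (95% interval -0.10 to 0.05, edgeR adjusted p = 0.568), -0.39 in 1-2 KO (edgeR adjusted p = 3.74e-07) and -0.36 between the knockouts (edgeR adjusted p = 4.31e-07). The neighbours on chromosome 12 had a median of -0.19 in 1-2 KO, with 23 of 50 lower and 4 higher, and HMGA2 was lower than WT by 0.20 with that median taken off.

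SALL4, a zinc-finger transcription factor of stem cells and fetal liver that recruits the NuRD chromatin complex, had the largest fold change of the members expressed in all lines. It had 3.17, 2.77 and 1.81 CPM in WT replicates 1 to 3, which rest on 57 to 126 counts. The 1-1 KO libraries had 4.04, 3.79 and 3.68 CPM, and the 1-2 KO libraries had 5.98, 5.90 and 6.56 CPM. The lines did not overlap, although WT replicate 3 was well below the other WT libraries. The log2 fold change was 0.55 in 1-1 KO (SE 0.153, edgeR adjusted p = 0.00588) and 1.23 in 1-2 KO (SE 0.147, edgeR adjusted p = 6.51e-06), a rise of 1.49-fold and 2.38-fold. Between the knockouts it was 0.68 (edgeR adjusted p = 0.000602). The neighbours on chromosome 20 (SALL4 lies from 51782331 to 51802521, minus strand) had medians of -0.20 and 0.06 in comparison to WT, while between the knockouts 31 of 50 were higher in 1-2 KO and their median was 0.33.

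**Figure D3:**
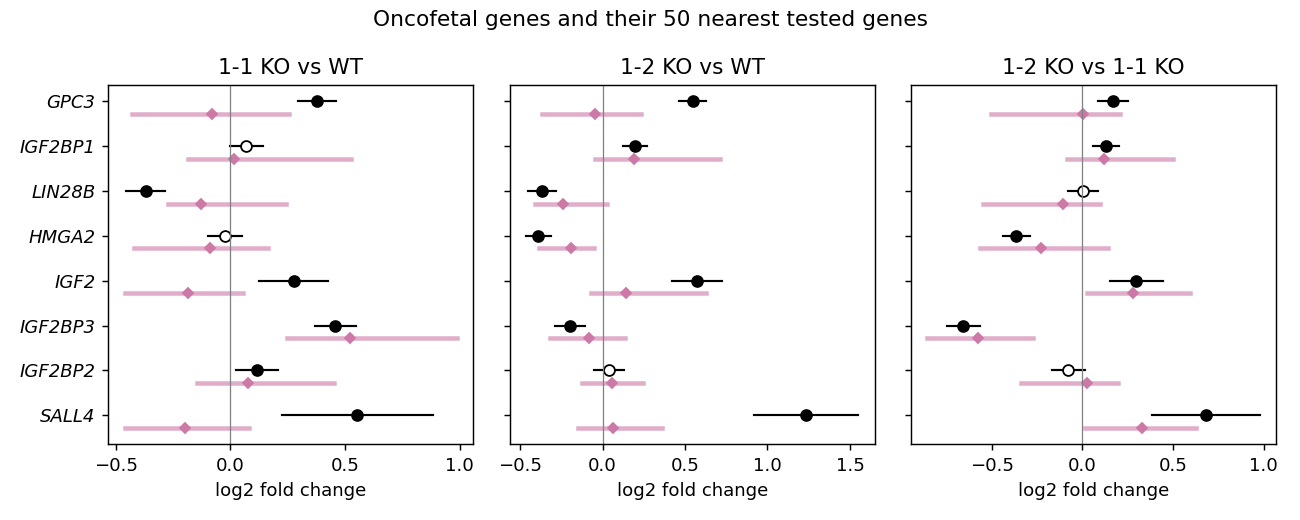
Log2 fold change of the 8 oncofetal genes expressed in all lines (black points, lines are 95% intervals, filled where the edgeR adjusted p was under 0.05), with the median (diamond) and the middle 50% (bar) of their 50 nearest tested genes on the chromosome. GPC3 and SALL4 lie away from their neighbours in both comparisons with WT, and IGF2BP3 in 1-1 KO lies at 0.46 where its neighbours lie at 0.52.

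Members with the same number of let-7 matches went in different directions. Among the 3 genes with 4 matches, LIN28B fell in both knockouts, HMGA2 fell in 1-2 KO and IGF2BP1 rose in 1-2 KO. Among the 3 genes with 1 match, SALL4 rose in both knockouts, IGF2BP3 rose in 1-1 KO and fell in 1-2 KO, and IGF2BP2 rose in 1-1 KO. The rise of IGF2BP2 did not pass the threshold with DESeq2. With the neighbours' median taken off, neither IGF2BP1 in 1-2 KO (0.01, edgeR adjusted p = 0.902) nor IGF2BP3 in 1-1 KO (-0.06, edgeR adjusted p = 0.205) passed it. Over all tested protein-coding genes with a 3′ untranslated region, 33 held 3 or more matches, LIN28B, IGF2BP1 and HMGA2 among them. Of these 33, 12 were higher and 10 lower in 1-1 KO (median log2 fold change 0.07), and 13 were higher and 9 lower in 1-2 KO (median 0.06). Of the 12125 genes without a match, 4318 were higher and 4140 lower in 1-1 KO, and 3831 were higher and 3617 lower in 1-2 KO. Their medians were 0.01 and 0.02.

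Genes that work with the members were read as 9 lists, by counts and medians and without a test of the list, against the shares of called genes given above. The LIN28-let-7 processing genes and the genes known as let-7 targets were mixed. Of 14 tested processing genes, LIN28B included, 4 rose and 7 fell in 1-1 KO (median log2 fold change -0.10, all tested genes 0.01) and 3 rose and 4 fell in 1-2 KO (median -0.05, all tested genes 0.02). LIN28A, described below, is among those that rose in both knockouts and was tested only through their libraries. DROSHA, the nuclease that cuts primary microRNAs, fell from 86.6 CPM in WT to 44.4 CPM in 1-2 KO (edgeR adjusted p = 8.51e-10) and had 86.9 CPM in 1-1 KO (edgeR adjusted p = 0.929). Its partner DGCR8 fell to 46.1 CPM in 1-1 KO (edgeR adjusted p = 1.46e-07) and rose to 82.0 CPM in 1-2 KO (edgeR adjusted p = 1.68e-05), from 65.6 CPM in WT. DICER1, which cuts the precursors, rose by 0.56 in 1-1 KO, and DIS3L2, which degrades the let-7 precursors that LIN28 has marked, fell by 0.64 on the log2 scale in 1-1 KO.

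LIN28A, the paralog of LIN28B, had 2 to 6 counts in WT, 42 to 56 counts in 1-1 KO and 11 to 17 counts in 1-2 KO. It passed the filter on low counts only through the knockout libraries, so that its rise over WT was bound up with its being tested. Its log2 fold changes were 3.24 and 1.53 where LIN28B fell, but its 0.292 CPM per kb in 1-1 KO compares with 66.2 CPM per kb for LIN28B. Of the 29 tested genes of the let-7 target list, 17 rose and 5 fell in 1-1 KO (median 0.17), and 14 rose and 8 fell in 1-2 KO (median 0.07). The list holds 5 members, and LIN28A is counted among the genes that rose in both knockouts. NRAS, a RAS oncogene, rose by 0.17 in 1-1 KO and fell by 0.69 on the log2 scale in 1-2 KO, and CDK6, a kinase of the G1 phase, did the reverse, with -0.57 and 0.18.

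IGF2 acts through receptors, and several genes of this axis had larger fold changes than IGF2 itself. Of 17 tested genes, 9 rose and 3 fell in 1-1 KO (median 0.43), and 8 rose and 6 fell in 1-2 KO (median 0.17). IGFBP5 is among those that rose in both, with 2 to 7 counts in WT, 14 to 21 in 1-1 KO and 23 to 26 in 1-2 KO. It passed the filter on low counts only through the knockout libraries, so that its rise was bound up with its being tested. IGF1R, the receptor that signals for IGF2, fell from 105.5 CPM in WT to 48.3 CPM in 1-1 KO (edgeR adjusted p = 4.92e-11) and 61.9 CPM in 1-2 KO (edgeR adjusted p = 2.66e-09). IGF2R, which clears IGF2, rose to 454 CPM in 1-1 KO (edgeR adjusted p = 5.76e-08) and fell to 244 CPM in 1-2 KO (edgeR adjusted p = 5.31e-07), from 324 CPM in WT.

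The binding protein IGFBP2 was the most changed gene of the axis in 1-1 KO, with 16.3 CPM in WT, 1.19 CPM in 1-1 KO and 16.4 CPM in 1-2 KO, a log2 fold change of -3.77 in 1-1 KO (edgeR adjusted p = 3.11e-12) and 0.01 in 1-2 KO (edgeR adjusted p = 0.915). IRS2, an adaptor of the insulin and IGF1 receptors, went from 1.32 CPM in WT to 10.8 CPM in 1-2 KO (edgeR adjusted p = 7.65e-11), with 1.08 CPM in 1-1 KO (edgeR adjusted p = 0.125). IGFBP3, the main carrier of IGF in serum, rose in both, by 1.65 and 0.85 on the log2 scale. STC2, an inhibitor of the protease that frees IGF from its carriers, also rose, by 0.69 and 1.81.

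**Figure D4:**
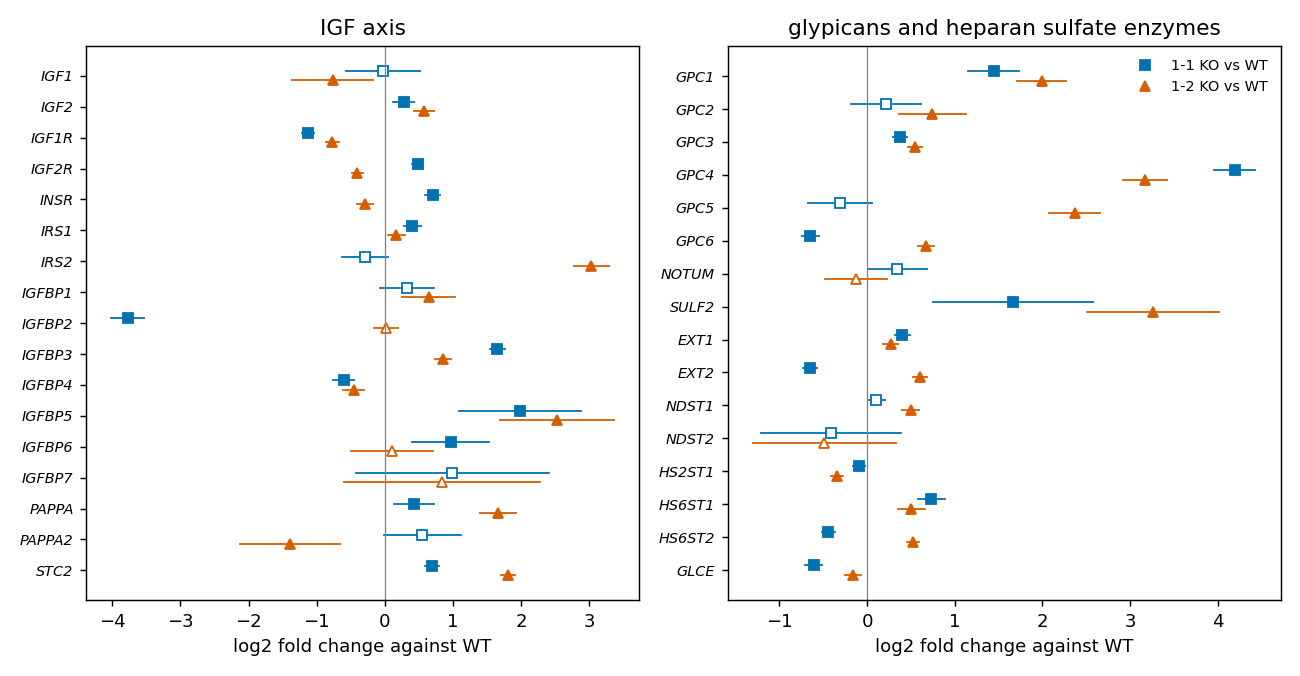
Log2 fold change against WT of the tested genes of the IGF axis (left) and of the glypicans and heparan sulfate enzymes (right), squares 1-1 KO and triangles 1-2 KO, with 95% intervals and filled symbols where the edgeR adjusted p was under 0.05. IGFBP2 is low in 1-1 KO alone, IRS2 is high in 1-2 KO alone, and GPC4 is high in both.

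The 6 glypican genes, GPC3 among them, all rose in 1-2 KO, by 0.55 (GPC3) to 3.17 (GPC4) on the log2 scale. They do not lie in 6 separate regions, as GPC5 (91398621 to 92873682) and GPC6 (93226807 to 94408020) are near each other on chromosome 13. Of 16 tested glypicans and heparan sulfate enzymes, 6 rose and 5 fell in 1-1 KO (median 0.16), and 12 rose and 2 fell in 1-2 KO (median 0.54). SULF2, with 3 to 11 counts in WT, rose in both and passed the filter on low counts through the knockout libraries. GPC4 lies next to GPC3 on chromosome X (133300103 to 133415489) and had 34, 37 and 21 counts in WT, 658, 644 and 621 counts in 1-1 KO and 323, 318 and 287 counts in 1-2 KO. Its log2 fold change was 4.19 in 1-1 KO (edgeR adjusted p = 1.18e-12) and 3.17 in 1-2 KO (edgeR adjusted p = 3.46e-11), so that the order of the knockouts was the reverse of that of GPC3. GPC4 nevertheless had 3.12 CPM per kb in 1-1 KO, against 269.7 CPM per kb for GPC3. GPC6, EXT2 (a polymerase of heparan sulfate chains) and HS6ST2 (a sulfotransferase on chromosome X) each fell in 1-1 KO, by 0.65, 0.65 and 0.44 on the log2 scale, and each rose in 1-2 KO, by 0.67, 0.60 and 0.53.

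Around the imprinted members, few genes were expressed. On 11p15.5, 12 of 24 listed genes were tested, IGF2 included: 3 rose and 6 fell in 1-1 KO (median -0.11), and 6 rose and 3 fell in 1-2 KO (median 0.18). CDKN1C, an imprinted inhibitor of the cell cycle, had 12 to 14 counts in WT, 60 to 93 in 1-1 KO and 37 to 43 in 1-2 KO, with log2 fold changes of 2.42 (edgeR adjusted p = 2.38e-07) and 1.49 (edgeR adjusted p = 0.000109). CD81, a tetraspanin, fell by 0.51 in 1-1 KO and rose by 0.59 in 1-2 KO on the log2 scale, and the histone chaperone NAP1L4 fell by 0.20 in 1-1 KO.

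On 14q32, 3 of 8 listed genes were tested, and MEG3, the maternally expressed partner of DLK1, did not pass the filter. DIO3, an imprinted deiodinase of thyroid hormone, had 6, 6 and 5 counts in WT. The 1-1 KO libraries had 36, 27 and 39 counts of it, and the 1-2 KO libraries had 17, 22 and 22. DIO3 passed the filter only through the knockout libraries, so that its rise in both was bound up with its being tested. In 1-1 KO, DIO3 rose beside DLK1, which was tested only through these libraries, and in 1-2 KO 2 genes rose, DIO3 and WDR25. DIO3 and DLK1 had too few WT counts to show a fall, and WDR25, with 146 to 187 counts in WT, was not called lower in either.

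The calls of genes that set imprints or drive IGF2 transcription depended on the setting. With the neighbours' median taken off, 4 were called lower in 1-1 KO compared to WT. Without that step, higher calls outnumbered lower calls in each knockout. Of 10 tested genes, 6 rose and 1 fell in 1-1 KO (median 0.30), and 7 rose and 1 fell in 1-2 KO (median 0.25). PLAG1, a fetal activator of IGF2 promoters, rose from 7.98 CPM in WT to 15.1 CPM in 1-1 KO (edgeR adjusted p = 5.54e-08) and fell to 6.04 CPM in 1-2 KO (edgeR adjusted p = 0.00045). Its relative PLAGL2 rose in both, to 141 and 167 CPM from 114 CPM in WT. DNMT1, which copies DNA methylation, rose by 0.33 and 0.27 on the log2 scale, and DNMT3B, which sets it anew, by 0.40 and 0.71.

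The family and the partner complex of SALL4 moved in both directions. Of 16 tested genes, SALL4 included, 7 rose and 4 fell in 1-1 KO (median 0.11), and 8 rose and 4 fell in 1-2 KO (median 0.07). SALL1, which shares the zinc-finger design of SALL4, had 337, 260 and 216 counts in WT, 17, 27 and 39 counts in 1-1 KO and 882, 820 and 917 counts in 1-2 KO. It fell in 1-1 KO, where SALL4 rose, with a log2 fold change of -3.47 (edgeR adjusted p = 9.99e-10), and it rose by 1.53 in 1-2 KO (edgeR adjusted p = 8.04e-08). The NuRD subunit CHD3 rose by 0.81 and 0.87, HDAC1 fell by 0.20 and 0.46, and GATAD2B fell by 0.52 and 0.17 on the log2 scale.

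Other progenitor and oncofetal markers of hepatocellular carcinoma changed in both directions as well. Of 14 tested genes, 8 rose and 4 fell in 1-1 KO (median 0.26), and 5 rose and 8 fell in 1-2 KO (median -0.36). AFP, the fetal serum protein, rose in both knockouts, with 1759 CPM in WT, 8167 CPM in 1-1 KO and 7419 CPM in 1-2 KO. EPCAM, a surface marker of liver progenitor cells, rose from 35.5 CPM in WT to 103.7 CPM in 1-1 KO (edgeR adjusted p = 5.07e-13) and had 34.7 CPM in 1-2 KO (edgeR adjusted p = 0.506). SPINK1, a secreted protease inhibitor, fell by 1.67 on the log2 scale in 1-2 KO, and the adhesion molecule ICAM1 fell by 1.33 in 1-1 KO and 1.15 in 1-2 KO.

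Between the knockouts, 65.3% of all tested genes were called, 33.1% higher and 32.2% lower in 1-2 KO, and 77.4% of the abundant genes. In the lists, 1-2 KO was higher for 6 and lower for 7 genes of the IGF axis. It was higher for 10 and lower for 5 glypican and heparan sulfate genes, and higher for 4 and lower for 5 let-7 processing genes. It was higher for 10 and lower for 15 let-7 targets, and higher for 8 and lower for 3 genes of 11p15.5. On 14q32, it was higher for 0 and lower for 2 genes (DIO3 and DLK1). DLK1 was tested only through the 1-1 KO libraries, so that it could not be called higher in 1-2 KO. In the remaining lists, 1-2 KO was higher for 6 and lower for 2 imprinting genes, and higher for 9 and lower for 6 SALL and NuRD genes. It was higher for 4 and lower for 9 of the other tumor markers. With the neighbours' median against WT taken off in each knockout, 3 genes of 11p15.5 were called higher, and counts of other lists moved as given at the end.

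The genes with the profile most like that of a member were found by the Euclidean distance of centred log2 CPM (pseudocount 0.5) over the 9 libraries, among genes whose mean reached 1 CPM. They were ID2 and NOL4L for GPC3, HEXIM1 and MTA1 for IGF2, and NUP107 and PTTG1 for LIN28B. C2orf72 and CDK12 were nearest to IGF2BP1, GLOD4 and CPD to IGF2BP2, and CAMK2D and GLG1 to IGF2BP3. PDCD2 and SLC30A1 were nearest to HMGA2, and TMEM185A and TPT1-AS1 to SALL4. The distances lay between 0.0528 (IGF2BP1 and C2orf72) and 0.366 (SALL4 and TPT1-AS1). DSP-AS1 and PPM1H were nearest to DLK1, whose level is under the pseudocount, so that its distance is compressed. NUP107, for example, had log2 fold changes of -0.38 with 1-1 KO and -0.36 with 1-2 KO, where LIN28B had -0.37 and -0.37. This likeness follows from the way these genes were picked, over the same 9 libraries.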

How the data were processed

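RNA of the 3 Huh-7 lines was sequenced as TruSeq stranded mRNA libraries with paired reads. Per the methods and the submitters' processing notes, the authors used STAR for alignment to GRCh38 (hg38) and featureCounts for counting. The deposited table holds raw read counts of genes, neither normalized nor filtered. Tool versions, the strand setting and the treatment of reads with several matches are not given in the sources used here. GENCODE 44 (GRCh38) supplied symbols and positions.

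Counts were analysed in R 4.3.3 with edgeR 4.0.16 (filterByExpr, minimum count 10, minimum total 15, TMM, quasi-likelihood test, all 9 libraries in 1 fit, Benjamini-Hochberg adjustment over 17207 genes, threshold 0.05), where the study used DESeq2. DESeq2 1.42.0 was an alternative. Python 3.11.15, pandas 2.3.3 and matplotlib 3.10.9 were used for annotation, sequences and plots. The floor was 3 counts per library, and fold changes against a line at or under it are lower bounds that cover counting error only. Neighbours are the 50 nearest tested genes on the chromosome. The steps were tested on simulated data.

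The members and the 9 further gene lists were chosen with earlier results of these data known. All members, up to 4 genes per list with the smallest adjusted p and the 2 genes most like each called member are named. IGF2R, LIN28A, IGF2-AS, IGFBP5, GPC5 and SULF2 were named after their values were seen. Alternatives were DESeq2, DESeq2's size factors, library size alone, other filters, the 2 groups alone, a replicate block, an adjusted p under 0.01, the neighbours' median taken off, and leaving out each library.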

Additional observations from a re-analysis of the deposited data

How the results depend on the processing

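Of the 27 log2 fold changes of tested members, all kept their direction and their side of the threshold with DESeq2's size factors and with a replicate block, and 26 did so with library size alone. The 27 include those of DLK1, of which that of 1-2 KO compared to WT, with 0 counts in both lines, had no direction and could not change. Replicate numbers did not pair the libraries: same-numbered libraries deviated together with correlations between -0.155 and 0.0367. With the replicate block, the members called in 1-1 KO compared to WT were 6 higher (DLK1 included) and 1 lower, as without it. Scaling by library size alone moved the median of all genes from 0.01 to 0.06 in 1-1 KO and from 0.02 to 0.07 in 1-2 KO.

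With the neighbours' median against WT taken off in each knockout, 3 called fold changes turned direction: IGF2BP3 in 1-1 KO compared to WT to -0.0638, and between the knockouts IGF2 to -0.0271 and IGF2BP1 to -0.0483. With the neighbours' median between the knockouts taken off instead, these last values were 0.0168 and 0.0115. HMGA2 in 1-1 KO (0.07) and IGF2BP2 in 1-2 KO (-0.02), which were not called, also changed sign. IGF2BP1 in 1-2 KO then had 0.01 (edgeR adjusted p = 0.902) and IGF2BP3 between the knockouts -0.05 (edgeR adjusted p = 0.321). The cause was not tested. IGF2BP1 in 1-1 KO passed the threshold with library size alone (edgeR adjusted p = 0.00231), with at least 10 counts in every library (0.0109) and with the 2 groups alone (0.0331). IGF2BP2 in 1-1 KO lost its call with DESeq2, without a filter, with the neighbours taken off, without WT replicate 1 and without 1-1 KO replicate 2 (adjusted p between 0.0591 and 0.414), and between the knockouts it gained one in 2 edgeR settings (0.037 and 0.0483).

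Counts of genes called in the lists moved by over 1.5 times in these cases. With the neighbours taken off, the genes of 11p15.5 called higher were 5 in 1-1 KO and 3 between the knockouts, the imprinting genes called lower in 1-1 KO were 4, and the glypican genes called lower were 0 in 1-2 KO and 3 between the knockouts. In that setting the processing genes called higher between the knockouts were 7, the 14q32 genes called higher in 1-2 KO were 1, and the SALL and NuRD genes called lower in 1-2 KO were 2 and between the knockouts 4 higher and 2 lower. With DESeq2 on the 2 groups, 1 processing gene was higher in 1-2 KO. On 14q32, at least 10 counts in every library left 1 gene higher in each knockout and 0 lower between them, while DESeq2, on all libraries or on the 2 groups, and an adjusted p under 0.01 left 1 lower between them. Imprinting genes lower between the knockouts were 1 with DESeq2 on all libraries and with an adjusted p under 0.01. Leaving out each library in turn gave between 1 and 3 genes of 11p15.5 lower in 1-2 KO (1 without 1-2 KO replicate 2), 1 or 2 genes of 14q32 lower between the knockouts (1 without 1-1 KO replicate 3 and without 1-2 KO replicate 1) and 1 or 2 imprinting genes lower between them (1 without replicates 2 or 3 of either knockout). Depth limits DLK1 and H19, whose values rest on at most 16 counts per library.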
